A study of Mus musculus with 48 samples.

Results

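The subject here is a group of 9 mature microRNAs (miRNAs), among 1978 rows in the deposited miRNA table: mmu-miR-135a-5p, mmu-miR-135a-2-3p, mmu-miR-129-5p, mmu-miR-129-1-3p, mmu-miR-129-2-3p, mmu-miR-708-5p, mmu-miR-708-3p, mmu-miR-344-3p and mmu-miR-598-3p. They were selected by name, with no numerical cut-off, because their levels were high in the trigeminal ganglion libraries taken 7 d after a saline injection. Comparisons that involve that group are therefore given as values only, and tests compare only the other groups. The libraries of that group still enter the shared fits of the trigeminal ganglion and the screen for single outlying libraries. Short RNA was sequenced from 2 ganglia of Balb/c mice aged 2.5 months. The trigeminal ganglion (TG) holds the sensory neurons of the face, and the superior cervical ganglion (SCG) holds sympathetic neurons of the head and neck. Mice received an intraperitoneal injection of 0.2 mL saline, or the same volume with lipopolysaccharide (LPS) of E. coli O55:B5 at 2.5 mg/kg, and ganglia were taken at 4 h, 24 h or 7 d. Each of the 12 groups of ganglion, treatment and time had 4 libraries from separate mice (replicates 1 and 2 female, 3 and 4 male). No genetic alteration is named for any group, every mouse was injected, and ganglia of both sides were removed from each mouse.

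A miRNA is cut from a hairpin precursor, and either arm of the hairpin (5p or 3p) can be loaded into an Argonaute protein. The loaded strand finds messenger RNAs mainly through its seed, the bases just after its first base, and usually lowers their stability or translation. MiR-129 is enriched in brain and other neural tissue, miR-708 lies within the teneurin gene Tenm4, and miR-135a is known in brain for its action on genes of serotonin signalling.

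Mature sequences of 7 of the 9 miRNAs were found in the RefSeq table (GRCm38.p6), and they are shown to make clear which arms differ in their seed. Capitals mark the seed, bases 2 to 8, and sequences run 5′ to 3′.
miR-135a-5p: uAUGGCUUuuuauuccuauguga
miR-135a-2-3p: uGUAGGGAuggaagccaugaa
miR-129-5p: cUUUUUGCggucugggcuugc
miR-129-2-3p: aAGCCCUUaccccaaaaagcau
miR-708-5p: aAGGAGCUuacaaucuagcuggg
miR-708-3p: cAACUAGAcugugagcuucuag
miR-344-3p: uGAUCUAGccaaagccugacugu

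No seed was shared between these 7. Outside them, miR-708-5p had the seed of miR-28a-5p and miR-344-3p that of miR-344c-3p, and these relatives are printed because their levels serve as a comparison below.
miR-28a-5p: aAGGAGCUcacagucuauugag
miR-344c-3p: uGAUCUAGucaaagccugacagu

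Several of the miRNAs can come from more than 1 locus. MiR-129-5p is an arm of the hairpins of Mir129-1 (chr6:29022619-29022691, plus strand, in an exon of the long noncoding RNA gene Gm3294) and Mir129-2 (chr2:94241364-94241453, minus strand, in an intron of Mir670hg). The hairpins are shown because the 3p arms, unlike miR-129-5p, are assigned to 1 hairpin each. Capitals mark miR-129-5p in both and miR-129-2-3p in the second.
Mir129-1: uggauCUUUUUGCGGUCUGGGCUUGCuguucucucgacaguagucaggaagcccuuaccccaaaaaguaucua
Mir129-2: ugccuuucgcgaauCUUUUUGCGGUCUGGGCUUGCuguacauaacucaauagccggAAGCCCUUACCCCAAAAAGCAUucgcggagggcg

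MiR-135a-5p likewise comes from Mir135a-1 (chr9:106154124-106154213, plus strand, in an intron of D030055H07Rik) and Mir135a-2 (chr10:92072086-92072185, minus strand, in an intron of the noncoding Rmst), whereas miR-135a-2-3p is assigned to Mir135a-2. MiR-344-3p comes from Mir344 (chr7:61877770-61877864) and Mir344-2 (chr7:61940027-61940106), both on the minus strand in introns of noncoding genes. The arms of Mir708 span chr7:96249450-96249517 on the plus strand in an intron of Tenm4. Positions are on GRCm38.p6 with GENCODE M21 gene models, while the deposited counts were made on GRCm39.

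Levels are given as CPM, counts scaled to a fixed library total with trimmed-mean (TMM) factors computed jointly from all 48 libraries. The smallest library held 1774047 miRNA counts and the largest 5592766. The sensory neuron miR-183, miR-96 and miR-182 summed to 57037 to 88281 CPM in the TG libraries. In SCG they summed to 21076 CPM in 24 h saline replicate 1, to 6814 CPM in 7 d saline replicate 1 and to 220.9 to 3796 CPM in the other 22 libraries. SCG 7 d LPS replicate 2 stood apart from the other SCG libraries. In it 7 of 8 neuronal marker miRNAs were below every other SCG library, while the eighth, miR-128-3p, was at 35652 CPM against 1548 to 6040 CPM, so that the neuronal sum (36202 CPM) lay inside the range of the other 23 (29757 to 50993 CPM). The 6 leukocyte miRNAs summed to 9876 CPM against 322 to 1000 CPM, with 3 of 6 above every other SCG library. All 4 erythroid and 7 of 10 pituitary and epithelial miRNAs were above every other SCG library. However, 2 of those 10, miR-7a-5p and miR-7b-5p, were below every other one. The sum of the 10 (17261 CPM) thus lay under the range of the other 23 (35907 to 57739 CPM). Tests within SCG are given with and without it. The tissue is bulk, so fewer cells of a type and less RNA per cell cannot be told apart.

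**Figure D1:**
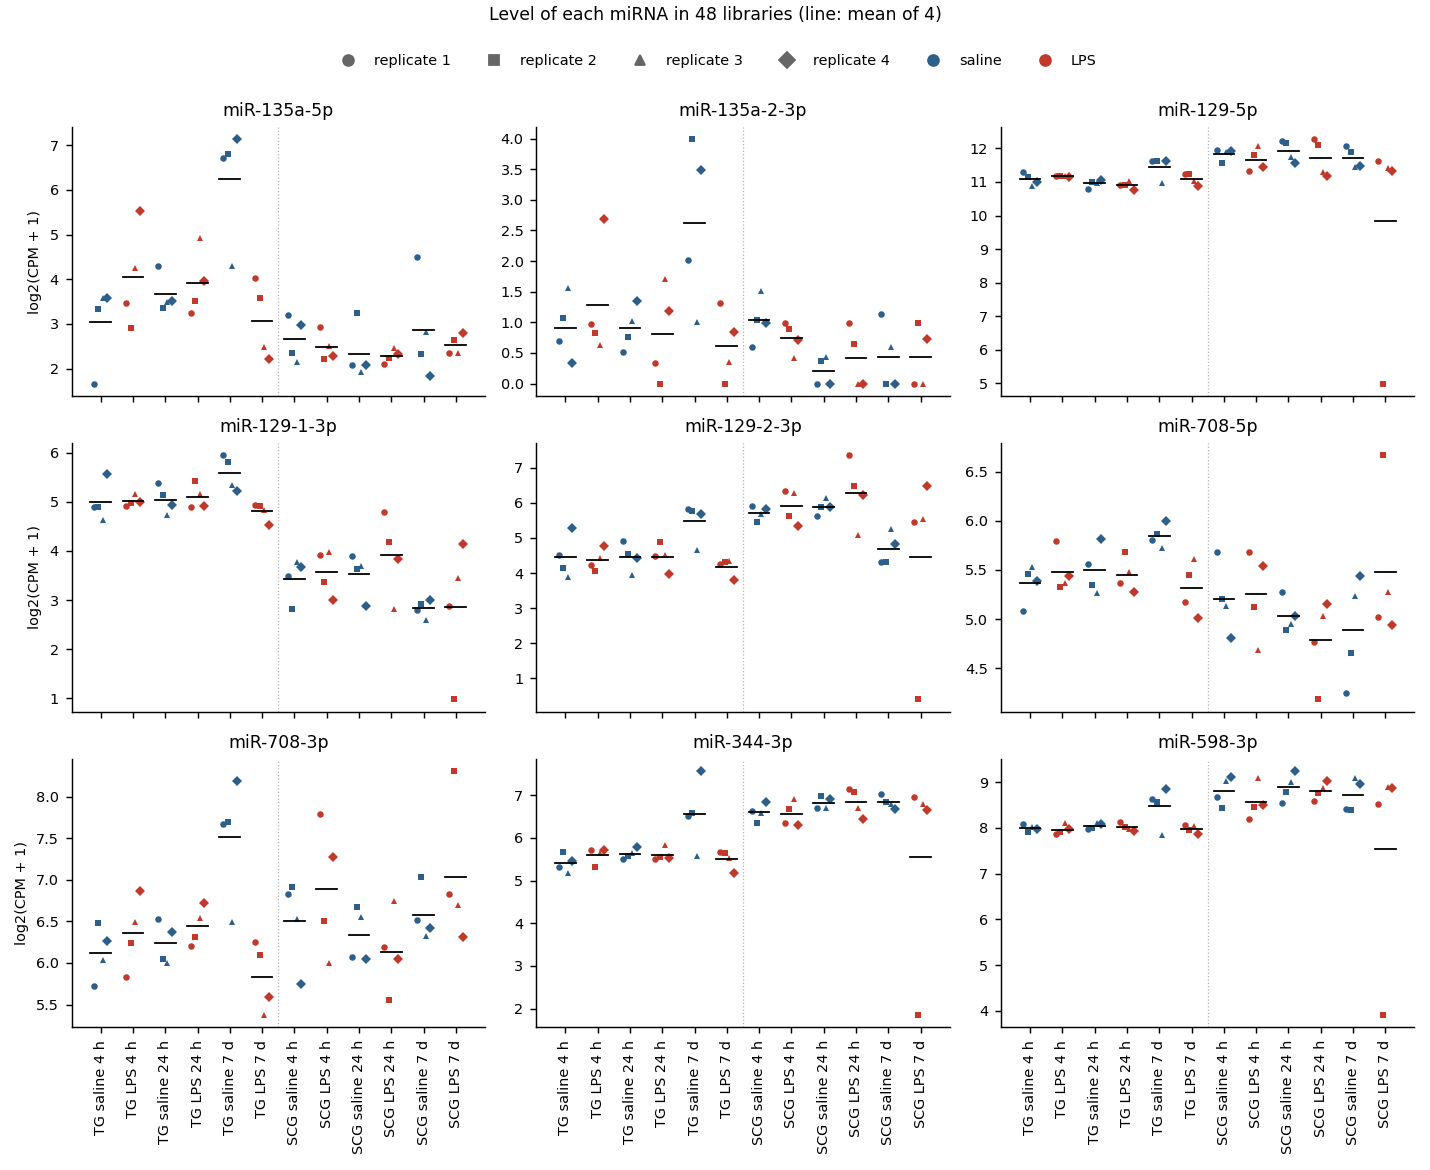
Level of each of the 9 miRNAs as log2(CPM + 1) (y axis, a separate range in each panel) in the 12 groups (x axis), with 1 point per library, marker shape for the replicate and a line at the mean of 4. Of the 4 TG 7 d saline libraries, 3 lie above the other TG libraries in most panels, and SCG 7 d LPS replicate 2 is low for miR-129-5p, miR-344-3p and miR-598-3p and high for miR-708-5p and miR-708-3p.

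In the TG 7 d saline group the high levels came from 3 of the 4 libraries. Replicates 1, 2 and 4 exceeded each of the 20 other TG libraries for 7, 9 and 8 of the 9 miRNAs, and replicate 3 did so for 0 of 9. Among all 577 miRNAs past the low-count filter, 14.7%, 14.2% and 19.6% exceeded the 20 other TG libraries in replicates 1, 2 and 4, and 3.47% did in replicate 3. Because these libraries chose the miRNAs, nothing is read from that contrast. The high libraries were of both sexes, since replicates 1 and 2 were female and replicate 4 male.

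The miR-135a arms had the widest contrasts. The level of miR-135a-5p in TG 7 d saline replicates 1 to 4 was 104.2, 111.5, 18.6 and 139.1 CPM, and in the 7 d LPS libraries it was 15.2, 10.9, 4.59 and 3.66 CPM. Every 7 d saline library lay above every 7 d LPS library, although replicate 3 exceeded the highest by only a few CPM. At 4 h the 4 saline libraries had 2.17, 9.14, 10.9 and 10.9 CPM and the 4 LPS libraries 10.1, 6.49, 17.9 and 45.2 CPM. At 24 h the saline values were 18.6, 9.23, 10.2 and 10.5 CPM and the LPS values 8.46, 10.5, 29.6 and 14.6 CPM. Replicate 3 of 7 d saline was thus within the range of the earlier libraries, and TG 4 h LPS replicate 4 was the highest of the 20 others. The group mean at 7 d after saline was 93.3 ± 52.0 CPM (SD, n = 4), 9.15 times that of the 8 earlier saline libraries and 10.9 times that of 7 d LPS. In SCG, 23 of the 24 libraries had 2.57 to 8.50 CPM, and 7 d saline replicate 1, the second highest SCG library for the sensory neuron miRNAs, had 21.6 CPM. The highest SCG library for those miRNAs, 24 h saline replicate 1, had 3.22 CPM of miR-135a-5p. The 20 TG libraries outside 7 d saline had a median of 10.5 CPM. Whether the sensory neuron signal had a part in the level of SCG 7 d saline replicate 1 was not tested.

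MiR-135a-2-3p, the other arm of the Mir135a-2 hairpin, was the scarcest of the 9. Its level in TG 7 d saline was 3.06, 14.8, 1.02 and 10.2 CPM, from 14, 79, 4 and 32 reads. In 44 of the 48 libraries it had fewer than 10 reads, and in 10 it had 0. The 4 libraries that reached 10 reads were TG 7 d saline replicates 1, 2 and 4 and TG 4 h LPS replicate 4 (21 reads), and through these it passed the low-count filter of the TG fit. In TG 7 d LPS it had 1.48, 0, 0.27 and 0.78 CPM, and the highest other TG library was again TG 4 h LPS replicate 4, at 5.42 CPM. The 2 arms thus ranked the same library first outside the 7 d saline group.

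The hairpin arms of miR-708 differed unequally. MiR-708-3p had 202.3, 205.8, 89.3 and 290.6 CPM in TG 7 d saline and 75.0, 67.5, 40.5 and 47.3 CPM in TG 7 d LPS. MiR-708-5p had 54.7, 57.3, 51.9 and 62.8 CPM after saline and 35.2, 42.5, 48.0 and 31.4 CPM after LPS. The group means differed 3.42-fold for the 3p arm and 1.44-fold for the 5p arm, with no overlap between saline and LPS libraries for either. The ratio of 3p to 5p was 3.70, 3.59, 1.72 and 4.62 in the 4 saline libraries, against a median of 1.74 (0.84 to 2.75) in the 20 other TG libraries. A ratio of 2 miRNAs within a library does not depend on scaling.

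Of the miR-129 arms, miR-129-5p was the most abundant of the 9. It had 3126, 3136, 2003 and 3163 CPM in TG 7 d saline and between 1901 and 2429 CPM in TG 7 d LPS. MiR-129-2-3p had 55.4, 53.8, 24.2 and 50.4 CPM after saline and 18.1, 19.0, 19.2 and 13.1 CPM after LPS. MiR-129-1-3p had 60.9, 55.5, 39.4 and 36.0 CPM after saline and 29.5, 29.4, 27.5 and 22.2 CPM after LPS. For this last arm replicate 4 was the lowest of the 4 saline libraries, so that the high libraries were replicates 1 and 2. Neither 3p arm overlapped between 7 d saline and 7 d LPS, whereas miR-129-5p did, through replicate 3.

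MiR-344-3p had 90.4, 95.7, 46.8 and 189.8 CPM in TG 7 d saline and 50.0, 49.0, 45.1 and 35.3 CPM in TG 7 d LPS. Replicate 4 had about double the level of replicates 1 and 2, and replicate 3 lay among the LPS libraries. MiR-598-3p had 397.7, 381.2, 230.1 and 461.2 CPM after saline and 265.6, 245.7, 261.1 and 232.6 CPM after LPS. Its replicate 3 was below every one of the 20 other TG libraries, which spanned only 232.6 to 280.7 CPM. Over the 9 miRNAs, 5 had every 7 d saline library above every 7 d LPS library (3.47% of 577 miRNAs did), and 0 had every 7 d saline library above all 8 earlier saline libraries (1.04% did). The median log2 ratio of group means over the 9 was -1.24 for LPS over saline at 7 d and 1.06 for 7 d saline over the earlier saline libraries.

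**Figure D2:**
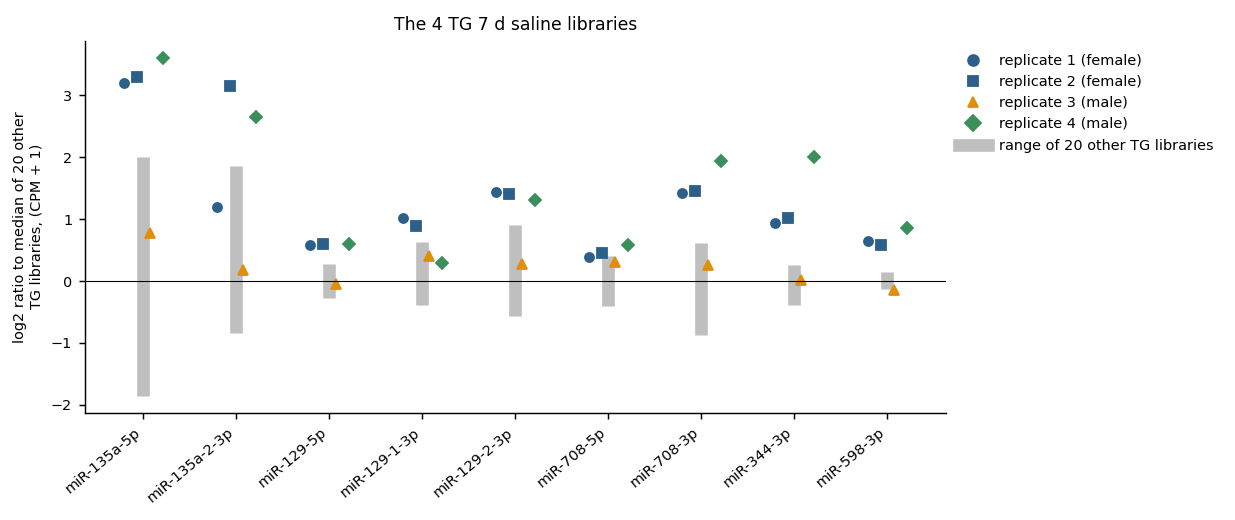
Log2 ratio of (CPM + 1) in each TG 7 d saline library to the median of the 20 other TG libraries (y axis) for each miRNA (x axis), with grey bars for the range of those 20. Replicates 1, 2 and 4 lie above the bars for most miRNAs, replicate 3 lies above none, and for miR-129-1-3p replicate 4 is inside the bar.

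Other marker miRNAs moved with these libraries. The 8 neuronal miRNAs summed to 60203, 59989 and 55753 CPM in TG 7 d saline replicates 1, 2 and 4, with 5 of 8 above every other TG library in each, and to 33516 CPM in replicate 3. The 20 other TG libraries had 28932 to 39116 CPM. The largest parts of the sum were miR-9-5p and miR-128-3p, at 22760 and 31190 CPM in replicate 1. Of the 8, miR-137-3p, miR-138-5p and miR-218-5p stayed within the range of the 20 others in replicates 1, 2 and 4. The 4 activity-induced miRNAs of the miR-132 and miR-212 cluster summed to 557.5, 571.6, 178.6 and 817.1 CPM in replicates 1 to 4. The others had 171.9 to 462.3 CPM. Of these 4 miRNAs, 2 were above every other TG library in replicates 1 and 2, 0 in replicate 3 and 3 in replicate 4. The sensory neuron list went the other way, with 58774, 61583 and 57037 CPM in replicates 1, 2 and 4 and 73839 CPM in replicate 3, against 60924 to 88281 CPM in the others, so that replicates 1 and 4 were below that range.

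The 3 high libraries were not alike in all lists. MiR-10a-5p, from a Hox cluster, was 757.2 and 837.2 CPM in replicates 1 and 2. It was 141.5 and 135.2 CPM in replicates 3 and 4, with 121.7 to 218.9 CPM elsewhere in TG. MiR-615-3p of the same list followed it (39.4, 46.6, 1.02 and 0.32 CPM, against 0.23 to 4.91 CPM). MiR-10b-5p did not, at 3072, 2958, 3384 and 2248 CPM against 2981 to 3854 CPM, so that replicates 2 and 4 were below that range. MiR-196a-5p and miR-196b-5p had at most 1.31 CPM in replicates 1 to 4. MiR-219a-2-3p, known from oligodendrocytes, was 1559 and 1771 CPM in replicates 1 and 2 and 604.1 and 230.9 CPM in replicates 3 and 4, against 18.0 to 1102 CPM. The highest of those 20 was TG 4 h LPS replicate 4, the library that also led them for both miR-135a arms and miR-708-3p. The rest of the myelinating glia list did not follow miR-219a-2-3p. MiR-219a-5p exceeded the 20 in replicate 2 only. Both miR-338-3p and miR-338-5p were within the range of the 20 in replicates 1 and 3 and below it in replicates 2 and 4. The 10 pituitary and epithelial miRNAs summed to 6188, 26046, 5603 and 28808 CPM in replicates 1 to 4, against 4412 to 41924 CPM. Leukocyte, erythroid, muscle, smooth muscle and endothelial sums stayed within the range of the other 20 in replicates 1 and 3. Below that range were the leukocyte and muscle sums of replicate 4 and the smooth muscle and endothelial sums of replicate 2. The 4 miRNAs of myelinating glia summed to 9379, 8071, 8119 and 5129 CPM (6764 to 9437 CPM in the others), and the 5 of the Hox clusters to 3871, 3842, 3527 and 2384 CPM (3152 to 3999 CPM). The part of these markers in the levels of the 9 miRNAs was not tested.

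**Figure D3:**
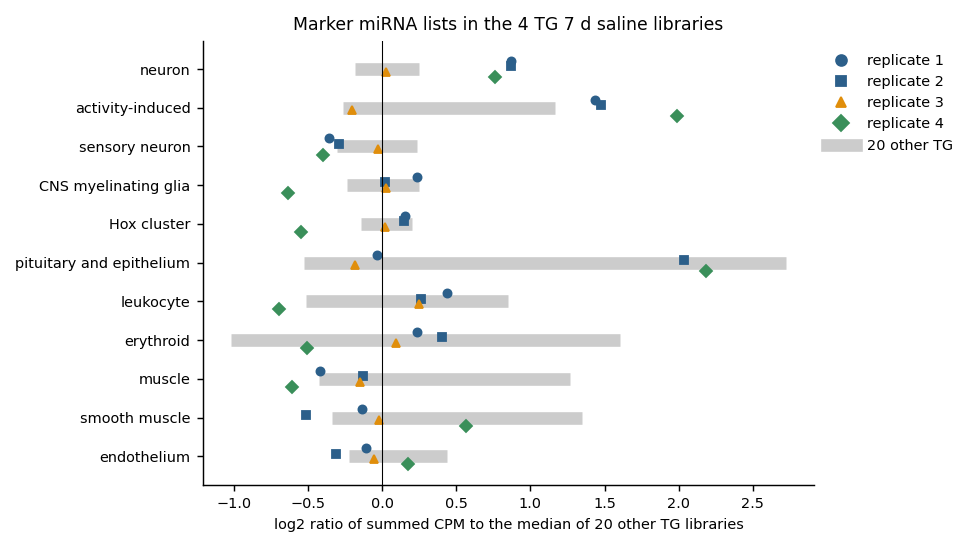
Summed CPM of each marker list (y axis, 1 list per row) in the 4 TG 7 d saline libraries as a log2 ratio to the median of the 20 other TG libraries (x axis), with grey bars for the range of those 20. Replicates 1, 2 and 4 lie above the bars for the neuron and activity-induced lists, and replicate 3 lies inside each bar.

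The miRNAs whose profile over the 24 TG libraries was most like the mean standardised profile of the 9 were drawn from 364 other miRNAs with a mean TG level of at least 10 CPM. The closest was miR-124-3p (Pearson r = 0.91, Spearman rho = 0.50), followed by miR-9-5p (0.90 and 0.50) and miR-9-3p (0.89 and 0.56), which are enriched in neurons. Next came miR-212-5p, miR-298-5p, miR-132-5p, miR-369-5p, miR-873a-5p, miR-128-3p and miR-330-5p, with r from 0.82 to 0.86. These correlations rest largely on the 3 high libraries, with which the group was chosen. Over the 20 TG libraries without 7 d saline, r was 0.67 for miR-298-5p, 0.43 for miR-124-3p, 0.44 for miR-9-3p and 0.08 for miR-128-3p. MiR-298-5p had 43.8, 49.6, 24.9 and 244.9 CPM in 7 d saline replicates 1 to 4 against a median of 22.8 CPM, so that replicate 4 stood out most. All points share the scaling of 1 table, and the values are descriptions without a test.

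Among themselves, the 9 miRNAs varied together less outside the 7 d saline group. The 36 pairs had a median r of 0.68 over 24 TG libraries, with 32 pairs above 0.5, and a median r of 0.22 over the 20 libraries, with 4 pairs above 0.5. MiR-135a-5p and miR-708-3p, from different chromosomes, had r = 0.82 (rho = 0.76) over the 20. The pair miR-129-1-3p and miR-129-2-3p had r = 0.88 (rho = 0.76) there and r = 0.85 (rho = 0.87) over 23 SCG libraries. In contrast, miR-708-3p and miR-708-5p had r = 0.14 (rho = 0.18) over the 20 TG libraries. These 2 pairs differed in SCG. Over the 23 SCG libraries the miR-708 arms had r = 0.56 (rho = 0.43), and miR-135a-5p and miR-708-3p had r = 0.14 (rho = 0.20). For the miR-129 pair, the Mir129-1 hairpin printed above also contains the bases of miR-129-2-3p, seed included, except near the 3′ end. That end reads uau in Mir129-1 and cau in miR-129-2-3p. How reads were assigned between these rows is not described in the labels. The part of that assignment in the correlations of the pair was not tested.

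Relatives by name or seed numbered 25 rows, of which 17 never reached 10 reads in a library. MiR-135b-5p, of the miR-135 family, had 45.3, 39.5, 25.4 and 80.4 CPM in TG 7 d saline against 22.5 to 38.1 CPM in the other 20 TG libraries. MiR-344d-3p had 27.4, 35.0, 13.2 and 56.1 CPM against 13.1 to 22.0 CPM. Both were thus above the other TG libraries in replicates 1, 2 and 4. MiR-344b-3p, at 28.9, 30.5, 29.8 and 32.5 CPM, stayed within the range of 19.8 to 36.2 CPM. MiR-28a-5p, which shares its seed with miR-708-5p, had 101.6, 81.0, 107.4 and 84.2 CPM against a range of 91.4 to 128.3 CPM. The seed relative of miR-344-3p, miR-344c-3p, had 1.53, 3.20, 0.51 and 5.74 CPM, and only replicate 4 exceeded the others, whose highest was 3.24 CPM.

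The comparison of sensory with sympathetic ganglion used the 4 h and 24 h libraries and left out the 7 d saline group. The earlier TG saline libraries were the reference against which that group was high. The saline comparison is therefore not fully independent of the choice of the 9. After saline, miR-135a-5p, miR-129-1-3p and miR-708-5p were higher in TG, and miR-129-5p, miR-129-2-3p, miR-344-3p and miR-598-3p were higher in SCG. These 7 of 8 tested miRNAs had adjusted p under 0.05 (edgeR's quasi-likelihood test, Benjamini-Hochberg adjustment over all miRNAs tested), where 65.2% of 520 miRNAs did. Most miRNAs differed between the ganglia, so nothing particular to the 9 is read from this count. Their median log2 fold change, TG over SCG, was -0.51, against 0.09 over all tested. MiR-135a-2-3p was not tested because of its low counts. Without SCG 24 h saline replicate 1, the SCG library with the most sensory neuron signal, 7 of 8 were again called.

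MiR-129-1-3p and miR-129-2-3p differed in opposite directions. In 8 TG saline libraries miR-129-1-3p had 23.7 to 46.3 CPM (median 29.2), and in 8 SCG libraries 6.03 to 13.8 CPM (median 11.6). Its log2 fold change was 1.66 ± 0.19 (SE, adjusted p = 1.39e-06), a 3.16-fold higher level in TG. MiR-129-2-3p had 13.8 to 37.8 CPM in TG (median 21.3) and 42.4 to 68.7 CPM in SCG (median 56.7), a log2 fold change of -1.28 ± 0.19 (adjusted p = 2.29e-05), or 2.42-fold higher in SCG. Libraries of the ganglia did not overlap for either arm. MiR-129-5p, which both hairpins give, had 1781 to 2531 CPM in TG (median 2054) and 3021 to 4762 CPM in SCG (median 3838), without overlap (log2 fold change -0.82 ± 0.09, adjusted p = 1.66e-06).

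The ratio of miR-129-2-3p to miR-129-1-3p separated the ganglia within each library. It was 0.50 to 1.40 in the 24 TG libraries (median 0.64) and 2.87 to 8.94 in 23 SCG libraries (median 5.32). SCG 7 d LPS replicate 2 had 0.33, from 1 read of miR-129-2-3p and 3 reads of miR-129-1-3p. TG 7 d saline replicates 1, 2 and 4, at 0.91, 0.97 and 1.40, were above the 20 other TG libraries, which reached 0.85, and replicate 3 had 0.61. The assignment of reads that fit more than 1 row of the table is not described in the labels, so the split between arms of the miR-129 hairpins is uncertain.

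**Figure D4:**
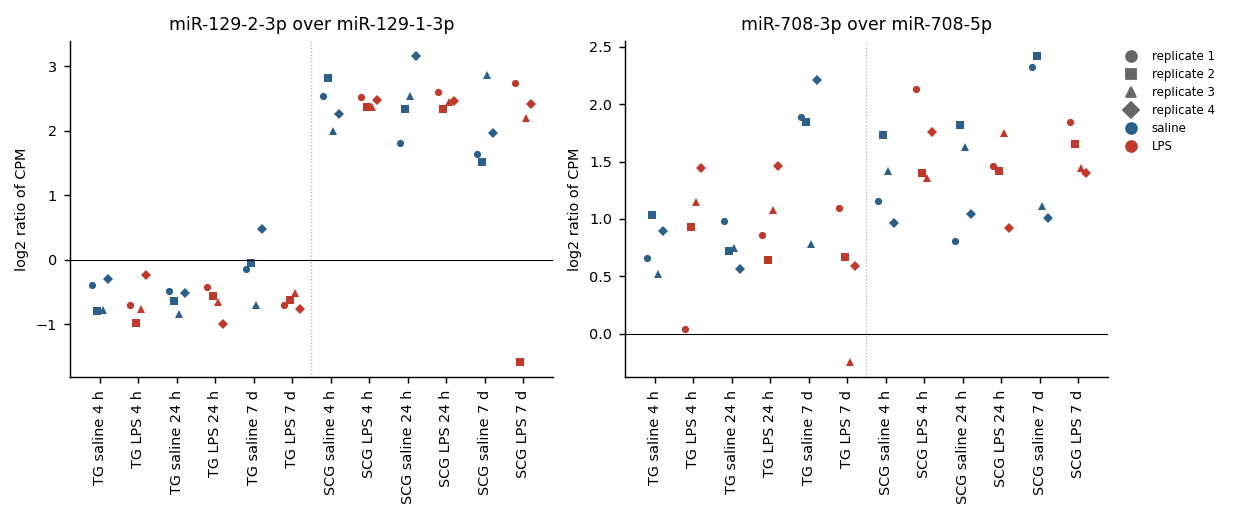
Log2 ratio of CPM of miR-129-2-3p to miR-129-1-3p (left) and of miR-708-3p to miR-708-5p (right) in each of the 48 libraries by group, with colour for treatment and marker shape for replicate. Before the log2 step, the left ratio is 0.50 to 1.40 in TG and 2.87 to 8.94 in SCG except for SCG 7 d LPS replicate 2. The right ratio overlaps between the ganglia.

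MiR-344-3p had 35.4 to 54.2 CPM in TG (median 45.7) and 81.3 to 126.0 CPM in SCG (median 103.1). The libraries did not overlap, and the log2 fold change was -1.17 ± 0.09 (adjusted p = 2.25e-08), a 2.25-fold higher level in SCG. MiR-598-3p had 241.6 to 275.1 CPM in TG (median 256.9) and 344.7 to 608.9 CPM in SCG (median 478.6), also without overlap (log2 fold change -0.80 ± 0.09, adjusted p = 1.33e-06). The high TG 7 d saline libraries lay within or above these SCG ranges for both miRNAs. Of the miR-344 relatives, miR-344c-3p (log2 fold change -1.65 ± 0.24, adjusted p = 2.00e-05 by edgeR) and miR-344d-3p (-0.41 ± 0.14, adjusted p = 0.0178) were also higher in SCG. MiR-344b-3p was higher in TG (1.14 ± 0.15, adjusted p = 6.10e-06), and miR-344d-3-5p did not pass (0.28 ± 0.40, adjusted p = 0.558).

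MiR-135a-5p had 2.17 to 18.6 CPM in TG (median 10.3) and 2.79 to 8.50 CPM in SCG (median 3.75). The ranges overlapped, and the log2 fold change was 1.08 ± 0.34 (adjusted p = 0.0114). With the 4 h libraries alone it was 0.55 and did not pass (adjusted p = 0.372). MiR-135b-5p had a wider difference, 30.7 ± 4.88 CPM in TG and 2.33 ± 2.99 CPM in SCG (log2 fold change 4.00 ± 0.46, adjusted p = 2.80e-06 by edgeR). MiR-708-5p had 32.8 to 55.2 CPM in TG and 27.0 to 50.5 CPM in SCG, a log2 fold change of 0.35 ± 0.13 (adjusted p = 0.0256) that missed the threshold in 14 of its alternatives. MiR-708-3p had 51.7 to 91.1 CPM in TG and 52.7 to 119.9 CPM in SCG, and its log2 fold change of -0.22 ± 0.17 (95% interval -0.57 to 0.13) did not pass (adjusted p = 0.258).

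After LPS the same comparison called 6 of 8 tested miRNAs, where 61% of 526 miRNAs were called. MiR-135a-5p and miR-129-1-3p were higher in TG (log2 fold changes of 1.82 ± 0.31 and 1.27 ± 0.22). The miRNAs higher in SCG were again miR-129-5p (-0.73 ± 0.14), miR-129-2-3p (-1.82 ± 0.27), miR-344-3p (-1.16 ± 0.12) and miR-598-3p (-0.75 ± 0.11). MiR-708-5p, at 0.37 ± 0.19 (adjusted p = 0.0982), and miR-708-3p, at -0.26 ± 0.28 (adjusted p = 0.434), did not pass. MiR-708-5p did pass in 5 alternatives, among them DESeq2 (0.42, adjusted p = 0.0439) and edgeR with RLE scaling (adjusted p = 0.0459). The adjusted p of the 6 lay between 6.46e-07 for miR-344-3p and 0.000280 for miR-129-5p.

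**Figure D5:**
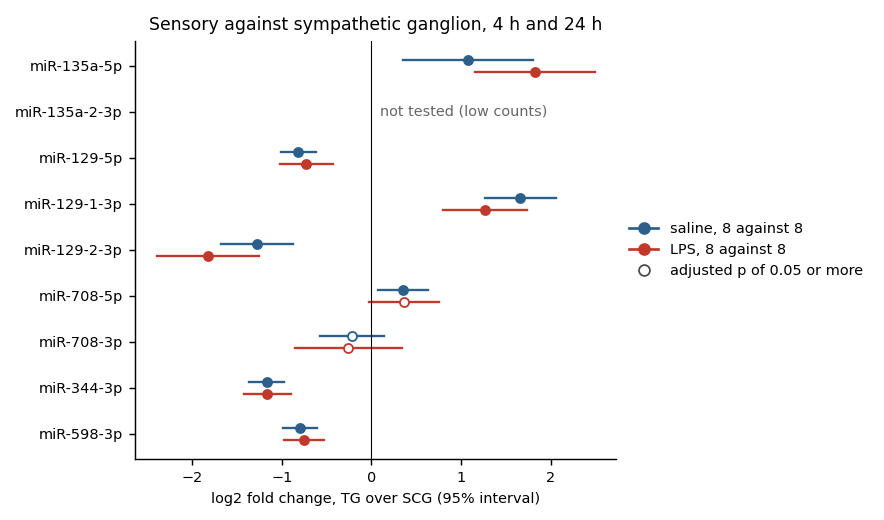
Log2 fold change of TG over SCG (x axis, points with 95% intervals from edgeR) at 4 h and 24 h after saline (blue) and LPS (red), 8 libraries against 8 in each; open points did not pass an adjusted p of 0.05. MiR-129-1-3p and miR-135a-5p lie to the right of 0, and miR-129-5p, miR-129-2-3p, miR-344-3p and miR-598-3p to the left, under both treatments.

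Comparisons of LPS with saline outside TG 7 d address the response to an inflammatory stimulus. In TG these tests come from a single fit of all 24 TG libraries, so the 7 d saline group has a part in the standard errors. MiR-135a-2-3p, which entered the TG fit mainly through the 7 d saline libraries, is left out of these counts. None of the other 8 passed the test in TG at 4 h (0 of 8; 0% of 538 miRNAs), in TG at 24 h (0 of 8; 0.372%), in SCG at 4 h (0 of 8; 0% of 506) or in SCG at 24 h (0 of 8; 0.395%). By unadjusted p under 0.05, edgeR gave 15 miRNAs of all tested in TG at 4 h, 23 in TG at 24 h, 13 in SCG at 4 h and 24 in SCG at 24 h. DESeq2 called 2, 3, 1 and 7 miRNAs in these comparisons and 0 of the 9 in each. Without SCG 7 d LPS replicate 2 in the SCG fit, edgeR called 0.584% of 514 miRNAs at 4 h and 1.17% at 24 h, again with 0 of 8. The standard error of miR-129-5p at 4 h was then 0.19 in place of 0.63, around log2 fold changes of -0.15 and -0.17. The intervals were narrow for abundant miRNAs in TG. For miR-598-3p at 4 h the log2 fold change was -0.03 (95% interval -0.31 to 0.25), and for miR-129-5p it was 0.09 (-0.16 to 0.34).

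MiR-135a-5p had a wider interval in TG at 4 h. The LPS libraries averaged 19.9 ± 17.5 CPM and the saline libraries 8.27 ± 4.15 CPM (SD, n = 4), and the ranges overlapped. The log2 fold change was 1.25 ± 0.68 (adjusted p = 1.00) and became 0.49 without TG 4 h LPS replicate 4. With the 4 TG 7 d saline libraries left out of the fit, it was 1.23 (adjusted p = 0.995 by edgeR). With all libraries but without the low-count filter, it was called (log2 fold change 1.25, adjusted p = 6.28e-06). At 24 h it was 0.32 ± 0.67. The difference in LPS effect between TG and SCG at 24 h was not past the threshold for any of 8 tested miRNAs of the group, nor for any of all 546 (0%; 27 at unadjusted p under 0.05 by edgeR, 0 by DESeq2).

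In SCG at 7 d, LPS against saline gave 0 of 8 (0.593% of 506 miRNAs were called; 103 at unadjusted p under 0.05, and DESeq2 called 40 with 0 of the 9). Replicate 2 of the LPS group set the spread there. It had 30.9 CPM of miR-129-5p, 2.60 of miR-344-3p, 14.0 of miR-598-3p and 0.33 of miR-129-2-3p, each far below the other 23 SCG libraries. MiR-708-3p and miR-708-5p were at 316.8 and 100.6 CPM, above those 23, and miR-135a-5p was at 5.21 CPM, within their range. Without this library 0 of 8 passed (0.584% of 514 were called), and the log2 fold changes were -0.01 ± 0.13 for miR-598-3p and 1.24 ± 0.41 for miR-129-2-3p (adjusted p = 0.362).

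MiR-129-2-3p was lower at 7 d than earlier in the SCG saline libraries. At 7 d the 4 libraries had 18.8, 18.9, 37.1 and 27.2 CPM. At 4 h they had 59.2, 42.4, 50.6 and 56.0 CPM, and at 24 h 48.6, 58.0, 68.7 and 57.3 CPM. Every 7 d library lay below all 8 earlier ones, but in the fit of all 24 SCG libraries the log2 fold change of -1.12 ± 0.62 did not pass (adjusted p = 0.965). None of the 8 tested did, and 0% of 506 miRNAs were called (22 at unadjusted p under 0.05 by edgeR, 0 by DESeq2). Fitted with the 12 compared libraries alone it was -1.14 ± 0.16 (adjusted p = 0.0113), the only miRNA called among 470 (0.213%). The fit of 24 includes SCG 7 d LPS replicate 2. Without that library the value was -1.13 ± 0.35 (adjusted p = 0.266), and 0% of 514 miRNAs were called (51 at unadjusted p under 0.05). In TG saline, 24 h against 4 h gave 0 of 8, miR-135a-2-3p left out as above, and 0% of 538 miRNAs (19 at unadjusted p under 0.05 by edgeR, 0 by DESeq2).

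MiR-598-3p separated the sexes in SCG. In each of the 6 SCG groups both female libraries lay below both male libraries, as at 4 h after saline (409.7 and 344.7 CPM in females, 521.0 and 549.9 CPM in males) and at 7 d after saline (340.6 and 332.9 against 546.4 and 496.9 CPM). Without SCG 7 d LPS replicate 2, females had 294.1 to 441.2 CPM (median 364.6, n = 11) and males 362.2 to 608.9 CPM (median 518.1, n = 12). The log2 fold change, female over male, was then -0.46 ± 0.07 (adjusted p = 0.000636), a 1.37-fold higher level in males, where 6.23% of 514 miRNAs were called. With all 24 SCG libraries it was -0.63 ± 0.28 (adjusted p = 0.324), 0 of 8 passed and 0.988% of 506 miRNAs were called (71 at unadjusted p under 0.05 by edgeR, 25 by DESeq2, with 0 of the 9 by DESeq2). In TG at 4 h and 24 h, 8 female libraries had 254.0 ± 16.5 CPM and 8 male libraries 259.4 ± 11.9 CPM (log2 fold change -0.02 ± 0.05, adjusted p = 0.995). None of 8 tested passed there, and 0% of 517 miRNAs were called (22 at unadjusted p under 0.05 by edgeR, 0 by DESeq2). Whether the sex difference itself differed between ganglia was not tested. MiR-135a-5p had the lowest p of the group for sex in TG, with 9.34 ± 4.61 CPM in females and 18.7 ± 12.5 CPM in males (log2 fold change -0.89 ± 0.38, adjusted p = 0.961).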

How the data were processed

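The authors deposited whole-number counts per mature miRNA, without normalisation, in 1 table of 48 libraries made from 140 ng of total RNA each. FastQC 0.11.9 and the build GRCm39 are named per the submitters' processing notes. For the aligner and the counting program, none is given in the sources used here. Groups came from the labels, also for 1 SCG and 1 TG library whose names spell LPS without its first letter. No animal term was used, since libraries of the same mouse are not marked.

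Counts were tested with the quasi-likelihood test of edgeR 4.0.16 in R 4.3.3 (two-sided, TMM scaling, filterByExpr with a minimum count of 10, robust dispersion, a sex term), with Benjamini-Hochberg adjustment over all miRNAs tested and a threshold of 0.05. Libraries of TG and of SCG were fitted separately except in comparisons of ganglia. The fits of TG against SCG also had a time term, and the other fits a term for the group of ganglion, treatment and time. DESeq2 1.42.0, other scaling, no filter and left-out libraries were alternatives. The code was tested on simulated data. No 2 replicates were duplicates: over the 72 pairs, chi-square per degree of freedom was at least 22.0. The 9 miRNAs, the marker lists and the rule for other named miRNAs (relatives by name or seed, the 10 most alike in profile) were chosen with earlier results of these data known. Single libraries and the SCG sex result were singled out after their values were seen.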

Additional observations from a re-analysis of the deposited data

Results flagged for a closer look

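Each of the 9 miRNAs was screened in each group of 4 libraries, 108 sets in all, for a library whose gap to its nearest neighbour exceeded Dixon's critical value as a share of the group's range. Such a gap was found in 10 sets, and chance alone gives about 1 in 20. In TG 7 d saline, replicate 3 was apart at 2003 CPM for miR-129-5p (the other 3 had 3126 to 3163 CPM) and at 24.2 CPM for miR-129-2-3p (50.4 to 55.4 CPM). The high levels of that group chose the miRNAs, so nothing is read from its gaps. In SCG 7 d LPS, replicate 2 was apart at 100.6 CPM for miR-708-5p (29.8 to 37.8 CPM) and 316.8 CPM for miR-708-3p (78.5 to 113.0 CPM). MiR-135a-2-3p was at 5.42 CPM in TG 4 h LPS replicate 4 (0.54 to 0.97 CPM in the others). MiR-135a-5p was at 18.6 CPM in TG 24 h saline replicate 1 (9.23 to 10.5 CPM) and at 8.50 CPM in SCG 24 h saline replicate 2 (2.79 to 3.22 CPM). MiR-129-5p was at 3021 CPM in SCG 4 h saline replicate 2 (3817 to 3930 CPM), and miR-129-2-3p at 13.1 CPM in TG 7 d LPS replicate 4 (18.1 to 19.2 CPM). MiR-344-3p was at 55.8 CPM in TG 24 h LPS replicate 3 (44.4 to 46.0 CPM).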

How the results depend on the processing

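The number of the 9 that were called was 7 between the ganglia after saline and 5 to 7 under the alternatives, and 6 after LPS and 6 or 7 under the alternatives. It moved from 0 to 1 in 3 other comparisons. Without the low-count filter, 1 of the 9 (miR-135a-5p) was called for LPS in TG at 4 h, with 16 of all miRNAs, against 0 in the reported fit. With the compared libraries alone, 1 (miR-129-2-3p) was called for SCG saline at 7 d. Without SCG 7 d LPS replicate 2, 1 (miR-598-3p) was called for sex in SCG, and the number over all miRNAs went from 5 to 32. The cause was not tested. Of 99 fold changes of single miRNAs, 13 were called, and 1412 alternative values kept their side of the threshold in 1389 cases. There 15 calls were lost, 14 of them of miR-708-5p between the ganglia after saline, 8 were gained (5 of them of miR-708-5p between the ganglia after LPS) and 0 reversed. A further 75 values changed sign while called in neither fit. All-miRNA counts for LPS in SCG at 7 d ranged from 0 with the compared libraries alone to 69 without the filter, with 0 of the 9 in each. Leaving out 1 library moved the median log2 ratio of the 9 for LPS over saline in TG at 7 d between -1.48 and -0.94, and that of 7 d over earlier saline between 0.78 and 1.27. These alternatives for the 2 medians were chosen after seeing the data. Depth limits miR-135a-2-3p, which mostly had fewer than 10 reads.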
